A study of Homo sapiens with 6 samples.

Results

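Cadherins and protocadherins are membrane proteins that hold cells together through extracellular repeats that bind calcium. They were measured here as 91 of the 23368 gene symbols in an RNA sequencing count table of HCT116 cells, an established colon cancer line. Membership followed the symbol alone: every CDH symbol that ends in a number, leaving out CDH1 and CDH3, and every symbol that begins with PCDH. Of these 91 genes, 57 belong to the clustered protocadherins (15 PCDHA, 19 PCDHB and 23 PCDHG symbols) and 34 are cadherins or protocadherins outside the clusters. The cells had received an siRNA against ADNP, a zinc finger and homeodomain protein of chromatin (siADNP), or a control siRNA (siControl), and each group held 3 libraries. Both groups are the same cell line, and the labels used here give no siRNA sequence, dose or time of harvest. The 3 libraries of a group are described as biological replicates with no word on separate cultures. The p-values therefore measure spread among these 6 libraries, some of which could be technical.

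Classical cadherins of type I and type II join neighbouring cells and pass force to actin through catenins bound to their cytoplasmic tail. Protocadherins have more extracellular repeats and lack this catenin tail, and they are known best for recognition between neurons. In the PCDHA and PCDHG clusters each variable exon has its own promoter and encodes the outside and the membrane span of a protein, and most are spliced to constant exons that the whole cluster shares, whereas PCDHB genes stand alone. Neurons pick a few of these promoters per cell, with CTCF, cohesin and DNA methylation acting on the choice.

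The knockdown and the identity of the cells were checked first. ADNP stood at 32.9% of control, and its 3 siADNP libraries (46.7 to 59.7 CPM, counts per 1000000 reads assigned to genes after TMM scaling) lay below the 3 siControl libraries (155 to 171 CPM). Reads assigned to genes ranged from 7396771 to 10265175 per library. Among 9 markers of the line, EPCAM, KRT8, KRT18, KRT19, CLDN4, CLDN7 and CDX2 were testable (CLDN4 rose, KRT19 fell, 5 did not pass), and VIL1 and CDX1 had 0 reads. Fibroblast markers summed to 0.113 to 1.41 CPM with siADNP and 0.295 to 0.602 CPM with siControl, and 2 of 6, DCN and LUM, were at 0. Neuron markers, the type in which protocadherins are best known, summed to 155 to 164 CPM with siADNP and 133 to 146 CPM with siControl, nearly all of it from SYT1 and TUBB3, while RBFOX3 had 1 read in all. Of 3 neuron markers tested, SYT1 (log2 fold change 0.20) and SNAP25 (1.11) were called higher and TUBB3 (0.15) did not pass (adjusted p = 0.168, edgeR). SNAP25 had 13, 15 and 14 reads with siADNP and 6, 7 and 9 with siControl. It passed the filter on low counts only through its siADNP libraries. STMN2 had 0 reads with siADNP and 2 with siControl, and the 1 read of RBFOX3 was from siControl. These genes are too few to set against the 28.3% called over all tested genes. Endothelial markers summed to 5.995 to 8.80 CPM with siADNP and 5.54 to 7.95 CPM with siControl (CLDN5 at 0). ESAM held 298 of their 356 reads. Blood markers summed to 9.73 to 10.9 CPM with siADNP and 6.74 to 8.51 CPM with siControl, without overlap. CD68 held 419 of the 456 blood marker reads. It was the only blood marker tested and was called higher (log2 fold change 0.42, adjusted p = 0.0366, edgeR). The part of all these markers in the results below was not tested.

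Few of the 91 genes were active enough to compare. Reads were found for 57 of them, 34 had none, and 8 passed the filter on low counts (filterByExpr in edgeR, minimum count 10). These 8 held 98.1% of the 12654 reads of the family, and the non-clustered protocadherin PCDH7 alone held 74.6%. Of the other 83 genes, 43 had 1 to 9 reads over the 6 libraries and 6 had more. A count of 0 over the 3 libraries of a group allows a level of up to 0.125 CPM with siADNP and 0.109 CPM with siControl (3 counts, counting error only). Of 13 type II cadherins, 9 were at 0 reads, CDH5 (VE-cadherin of endothelium), CDH6 and CDH11 among them. N-cadherin CDH2, a usual marker of mesenchymal cells, had 1 read in each group.

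Sequences before the starts of the clustered genes are shown because they set the measured genes beside near-silent neighbours. RefSeq promoter sequences (GRCh38.p14) were matched for 70 members, 47 of them clustered, and all clustered ones lie on chromosome 5. The motif CGCT, the core of a conserved element known from these clusters, was searched on both strands (AGCG is its reverse complement, and the forms overlap in AGCGCT). It occurred within 100 bases before the start in 44 of 47 clustered promoters (93.6%) and in 44.8% of all 35116 promoters. It was also in 6 of 11 non-clustered protocadherin, 6 of 8 type II, 1 of 2 type I and 2 of 2 other cadherin promoters. On the strand of transcription alone it was in 93.6% of clustered and 28.1% of all promoters, and in 3 of 11 non-clustered protocadherin and 3 of 8 type II promoters. The 100-base limit was set after the positions were seen. The windows below are 60 bases long, lined up on CGCT and read along the plus strand, with CGCT and AGCG in capitals. They show the 3 clustered genes with enough reads to test (PCDHGA10, PCDHAC1 and PCDHAC2), PCDHGB7, and 4 of the PCDHGA windows most like that of PCDHGA10. PCDHGA1 shares the fourth place with PCDHGA3 and PCDHGA6 at 70% identical bases, and of these only PCDHGA1 is shown. The windows of PCDHAC2, PCDHAC1 and PCDHGB7 shared only 25%, 18.3% and 18.3% of their bases with that of PCDHGA10. A match to the 4 bases CGCT does not show that the conserved element is present.
PCDHGA10 (chr5:141412917-141412976): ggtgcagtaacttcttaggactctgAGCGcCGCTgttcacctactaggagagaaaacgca
PCDHGA8 (chr5:141392554-141392613): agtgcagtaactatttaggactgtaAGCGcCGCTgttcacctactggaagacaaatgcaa
PCDHGA9 (chr5:141402700-141402759): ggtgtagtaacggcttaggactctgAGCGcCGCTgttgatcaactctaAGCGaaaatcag
PCDHGA2 (chr5:141338689-141338748): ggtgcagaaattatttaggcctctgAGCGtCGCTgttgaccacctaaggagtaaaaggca
PCDHGA1 (chr5:141330389-141330448): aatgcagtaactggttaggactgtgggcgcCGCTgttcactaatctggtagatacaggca
PCDHGB7 (chr5:141417593-141417652): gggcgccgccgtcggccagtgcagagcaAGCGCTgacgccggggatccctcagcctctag
PCDHAC1 (chr5:140926206-140926265): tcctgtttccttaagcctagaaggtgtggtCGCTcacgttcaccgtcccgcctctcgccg
PCDHAC2 (chr5:140966405-140966464): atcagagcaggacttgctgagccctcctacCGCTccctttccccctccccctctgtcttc

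PCDHGA8, whose window shares 48 of 60 bases (80%) with that of PCDHGA10, had 3 reads in all 6 libraries, where PCDHGA10 had 282. PCDHGA9 shared 76.7% and had 6 reads. Windows with similar letters stood before a gene with many reads and before others with few. Whether the windows bear on the reads was not tested. The longer form AGCGNCGCT, picked after the sequences were seen, was found within 100 bases of the start in 6 of 20 PCDHG promoters (PCDHGA2, PCDHGA6, PCDHGA7, PCDHGA8, PCDHGA9 and PCDHGA10) and in 0.222% of all promoters. A core consensus of the CTCF motif, searched on either strand of the 250 bases before the start, matched 1 of 14 PCDHB promoters (PCDHB9), none of 13 PCDHA and none of 20 PCDHG promoters, against 2.02% of all. The 250 bases before PCDHAC1 and PCDHAC2 held 18 and 13 CpG dinucleotides, more than the median of 5 in the PCDHA set, while PCDHGA10 held 3. The CTCF pattern was searched without mismatches, so a promoter without it may still hold a CTCF site. These matches describe letters in a window and say nothing of binding.

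Outside the clusters, 5 genes could be tested. PCDH1 and CDH24 rose with siADNP, PCDH7 fell slightly, and CDH15 and CDH22 did not pass. Calls rest on edgeR's quasi-likelihood test, with a Benjamini-Hochberg adjusted p under 0.05 over all 12489 genes tested. In that comparison 28.3% of all tested genes were called, 14.6% higher and 13.7% lower, and the groups did not overlap in 40.8%. With 3 of 5 genes called and 4 of 5 without overlap, the set is too small to be read against these shares. The median log2 fold change was 0.49 over the 5 genes and -0.00 over all tested genes. In RNA from whole cultures, fewer cells that express a gene and less of its RNA per cell cannot be told apart.

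PCDH1 encodes a protocadherin of epithelia, known from the airway lining. It stood at 25.7, 25.5 and 25.0 CPM in the siADNP libraries and at 13.8, 15.3 and 15.3 CPM in the siControl libraries. All siADNP libraries lay within 1 CPM of each other and well above every control library. The means of 25.4 ± 0.308 and 14.8 ± 0.887 CPM (SD, n = 3 each) give a 1.71-fold rise (log2 fold change 0.78 ± 0.10, SE; adjusted p = 3.20e-07, edgeR). The call held in every alternative run, with adjusted p between 8.77e-11 and 3.15e-05.

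CDH24 encodes a type II cadherin that binds catenins. Its level was 25.3, 21.2 and 22.7 CPM with siADNP and 15.3, 18.5 and 15.2 CPM with siControl, so the lowest siADNP library stood above the highest control. CDH24 rose 1.40-fold (log2 fold change 0.49 ± 0.11, SE; adjusted p = 0.000810, edgeR). With an offset for GC content, described below, the log2 fold change was 0.32 (adjusted p = 0.0236, edgeR).

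PCDH7, a protocadherin first described in brain and heart, was the most abundant member. Its siADNP libraries held 161, 180.3 and 173 CPM and its siControl libraries 191, 204 and 185 CPM. The groups came close but did not overlap. PCDH7 fell to 88.6% of control (log2 fold change -0.18 ± 0.05, SE; adjusted p = 0.0117, edgeR). The call was lost without siADNP replicate 1 (adjusted p = 0.0890), without siControl replicate 2 (0.113) and with the GC offset (0.0782, and 0.0976 when blocked by replicate). Across all alternatives its adjusted p ran from 0.00428 to 0.113.

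CDH15, the M-cadherin of skeletal muscle, was weakly expressed. It was at 4.62, 3.62 and 2.84 CPM with siADNP and at 2.24, 2.46 and 2.53 CPM with siControl. The groups did not overlap, yet the siADNP libraries were spread widely, and the log2 fold change of 0.62 ± 0.26 (SE) did not pass (adjusted p = 0.0658, edgeR). It passed without siADNP replicate 3 (log2 fold change 0.77, adjusted p = 0.0356), over a range of 0.0356 to 0.284. CDH22, a type II cadherin of pituitary and brain, was at 1.80, 1.24 and 1.22 CPM with siADNP and at 1.46, 1.57 and 0.843 CPM with siControl. Its groups overlapped, and the log2 fold change was 0.11 ± 0.37 (SE; adjusted p = 0.861, edgeR).

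**Figure D1:**
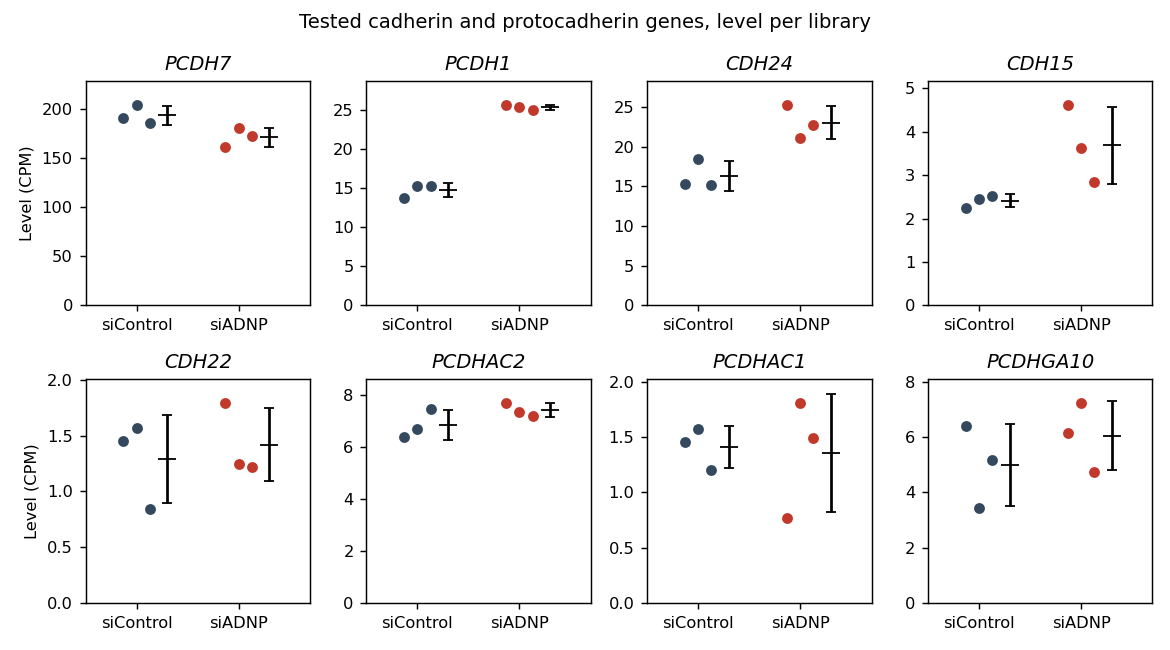
Level of the 8 tested genes in each library (vertical axis, CPM from 0; points from left to right are replicates 1, 2 and 3), with the mean and SD of each group as a black bar. PCDH1, CDH24 and CDH15 show every siADNP library above every siControl library, PCDH7 shows the opposite order, and the other 4 genes overlap.

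The PCDHA cluster was represented almost entirely by its C-type genes. PCDHAC2 and PCDHAC1 held 437 reads, against 7 for PCDHA1 to PCDHA13 together, of which 1 was from siADNP and 6 from siControl libraries. PCDHAC2 was at 7.70, 7.35 and 7.18 CPM with siADNP and at 6.38, 6.68 and 7.47 CPM with siControl. Its highest control library lay inside the range of the siADNP libraries, and the log2 fold change was 0.12 ± 0.16 (SE; adjusted p = 0.631, edgeR). PCDHAC1 was at 0.770, 1.81 and 1.49 CPM with siADNP and at 1.46, 1.57 and 1.20 CPM with siControl, a log2 fold change of -0.05 ± 0.37 (SE; adjusted p = 0.937, edgeR). The siADNP libraries of PCDHAC1 spanned both the lowest and the highest value.

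In the PCDHG cluster PCDHGA10 stood out among 23 symbols, all of which had at least 1 read. Its level was 6.16, 7.24 and 4.74 CPM with siADNP and 6.38, 3.44 and 5.18 CPM with siControl. The groups overlapped, and the log2 fold change of 0.30 ± 0.21 (SE) did not pass (adjusted p = 0.291, edgeR). None of the 3 tested clustered genes was called by edgeR or by limma on the deposited log2 values. DESeq2's Wald test, which called 19.6% of all genes it tested, called neither PCDHAC2 nor PCDHGA10 and gave no adjusted p for PCDHAC1. In edgeR, 0 of 3 had an unadjusted p under 0.05. PCDHAC2, PCDHGA10 and PCDHAC1 held 79.4% of the 906 reads of all clustered genes.

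**Figure D2:**
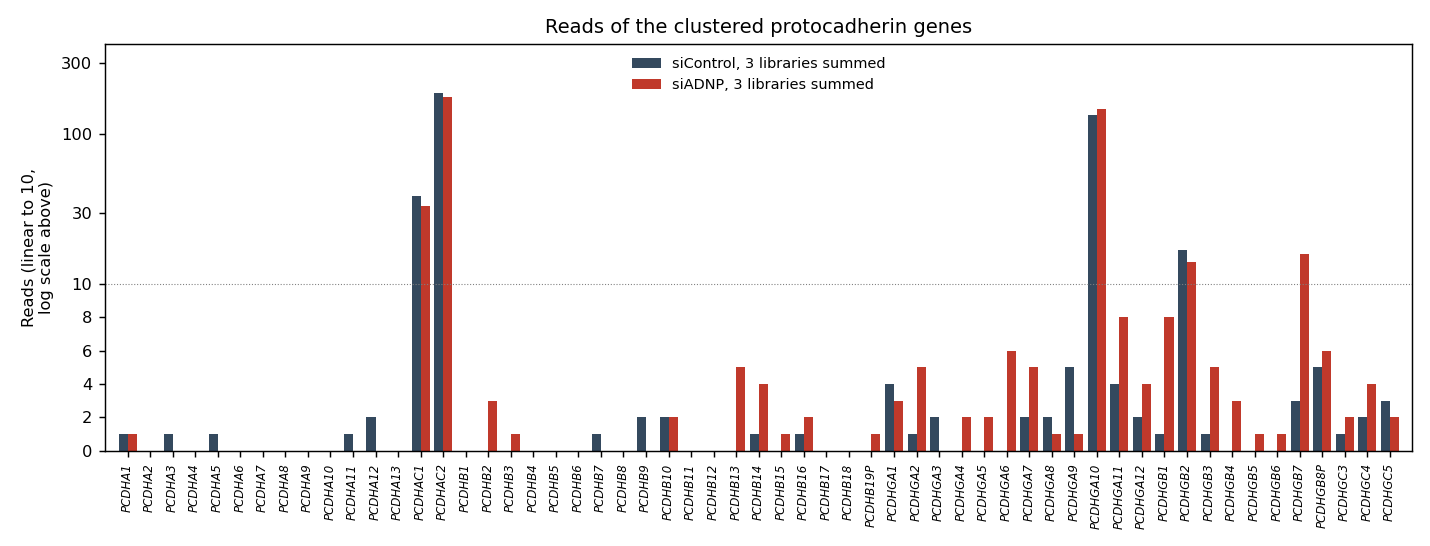
Reads of each of the 57 clustered protocadherin genes (horizontal axis, ordered by subfamily and number), summed over the 3 libraries of a group; the vertical axis is linear up to 10 reads and logarithmic above. PCDHAC2 and PCDHGA10 exceed 100 reads in both groups, PCDHAC1 exceeds 30, and most others stay under 10.

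The remaining clustered genes had too few reads for a test of each, and their sums are given as a description. The 22 untested PCDHG genes summed to 3.98, 4.52 and 3.79 CPM with siADNP and to 1.34, 2.46 and 2.17 CPM with siControl, a ratio of means of 2.06. Every siADNP library was above every control library, and 16 of the 22 genes had the higher level with siADNP. The 19 PCDHB genes summed to 0.641, 1.02 and 0.677 CPM with siADNP and to 0.224, 0.393 and 0.120 CPM with siControl, again without overlap but from 19 and 7 reads. PCDHA1 to PCDHA13 went the other way, on 7 reads. All 5489 untested genes with reads, summed in the same way, gave a ratio of 1.09, also without overlap, and 53.5% of them had the higher level with siADNP, against 67.3% of the 49 untested members with reads.

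Within the PCDHG cluster the difference was spread over several genes. PCDHGB7 had 7, 4 and 5 reads with siADNP and 0, 2 and 1 with siControl, and these did not overlap. The ratio of its levels was 6.09, with an exact 95% counting interval of 1.74 to 32.6. With no filter on low counts PCDHGB7 was called (log2 fold change 2.45, adjusted p = 0.0346, edgeR). In that fit 9.8% of all 17978 genes with a read were called higher, a share over genes of every read level. PCDHGB7 had the smallest p there of the members that the filter removes, and its interval is not corrected for that. PCDHGB1 had 8 reads with siADNP and 1 with siControl (ratio 9.13, interval 1.22 to 405). PCDHGA6 had 6 and 0, which is 2.28-fold higher when the control group is set to 3 counts. For PCDHB13, with 5 and 0, this value was 1.90-fold. Both values take the siADNP reads as exact, without their counting error, and are not lower limits like those of the intervals. In the fit with no filter PCDHGA6 (adjusted p = 0.0872), PCDHB13 (0.133) and PCDHGB1 (0.139) did not pass. PCDHGA9 lay the other way, with 1 read with siADNP and 5 with siControl (ratio 0.228, interval 0.00483 to 2.04). PCDHGB2, the untested gene with the most reads, had 14 with siADNP and 17 with siControl and showed no such difference (ratio 0.940, interval 0.429 to 2.03). PCDHGA11 had 8 and 4 reads, and the pseudogene PCDHGB8P 6 and 5. These intervals cover counting error only, and reads of near-identical copies may be split between genes or lost as not uniquely aligned.

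Outside the clusters, PCDH19, a protocadherin of neurons, had 17 reads with siADNP and 7 with siControl (ratio 2.77, interval 1.09 to 7.91), but its libraries overlapped, from 3 to 7 reads and from 1 to 5. CDH26 had 4 and 8 reads. CDH17, the liver-intestine cadherin of intestinal epithelium, had 5 and 2 reads, and the hair cell cadherin CDH23 had 2 in each group.

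**Figure D3:**
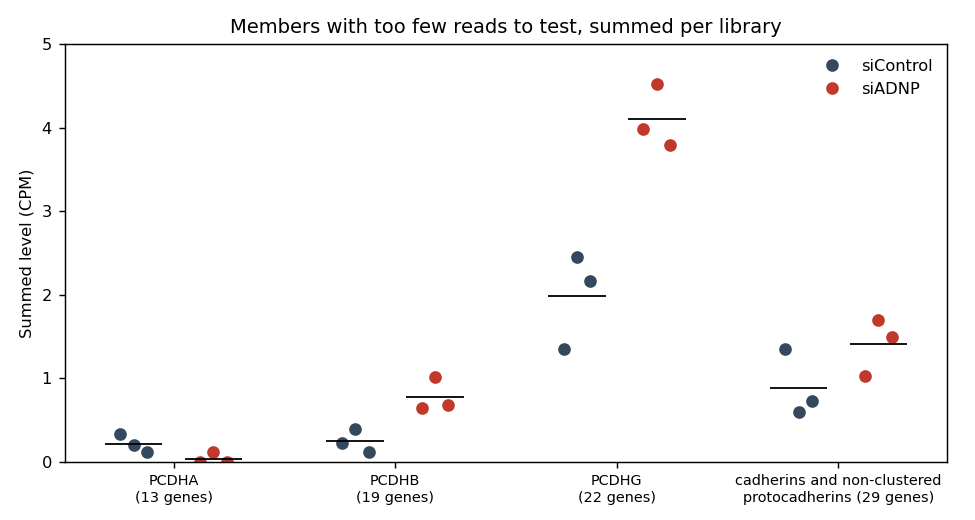
Summed level (vertical axis, CPM) of the members with too few reads to test, per library, with the group mean as a line. The 22 PCDHG genes lie between 3.79 and 4.52 CPM with siADNP and between 1.34 and 2.46 CPM with siControl, and the 29 cadherins and non-clustered protocadherins overlap between the groups.

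Levels of different genes were compared per kilobase of the longest annotated transcript. In the siControl libraries PCDH7 stood at 28.6 CPM per kb, CDH24 at 4.60, PCDH1 at 3.09, PCDHAC2 at 1.15, PCDHGA10 at 1.08, CDH15 at 0.846, CDH22 at 0.331 and PCDHAC1 at 0.266. Neighbours in this order were apart in every control library except PCDHAC2 and PCDHGA10, PCDHGA10 and CDH15, and CDH22 and PCDHAC1, whose ranges overlapped. In the siADNP libraries the per-kilobase level of PCDH1 rose to 5.30 and that of CDH24 to 6.49, and PCDH7, CDH24 and PCDH1 kept the first places in that order. The sources used here do not say how reads of the shared constant exons were counted, and per-kilobase levels of PCDHAC1, PCDHAC2 and PCDHGA10 may be too low.

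GC content moved with the change across the whole table. The longest transcripts of PCDH1, CDH24, CDH15 and CDH22 had a GC content of 60.2%, 64.2%, 65.9% and 66.4%, and that of PCDH7 had 41.5%. Their log2 fold changes were 0.78, 0.49, 0.62, 0.11 and -0.18 in the same order. The members PCDH1, CDH24, CDH15 and CDH22 are too few to show or deny a trend with GC content. Over all tested genes the median log2 fold change was 0.03 between 50% and 55% GC and 0.07 between 55% and 60%. Above 60% GC it was 0.12. Among all tested genes above 60% GC, 25.5% were called higher and 4.4% lower, and among those between 40% and 45%, 8.69% and 19.7%. The 23 PCDHG genes had a median GC content of 55.2%, against 48.4% for PCDHB and 47.9% for PCDHA genes. Between 55% and 60% GC, 20.8% of all tested genes were called higher and 6.01% lower. The part of GC content in the summed levels of untested genes was not tested. For the tested genes it was not tested beyond the offset below. An offset was used that removes the smooth dependence on GC in each library. With it the log2 fold change was 0.64 for PCDH1 (adjusted p = 8.95e-06, edgeR), 0.32 for CDH24 and 0.45 for CDH15 (0.198). It was -0.06 for CDH22 (0.921) and -0.12 for PCDH7. PCDH1 and CDH24 thus kept their calls and PCDH7 lost its call. Low expression moved with the direction too, since 9.93% of tested genes under 3 CPM were called higher and 2.65% lower.

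**Figure D4:**
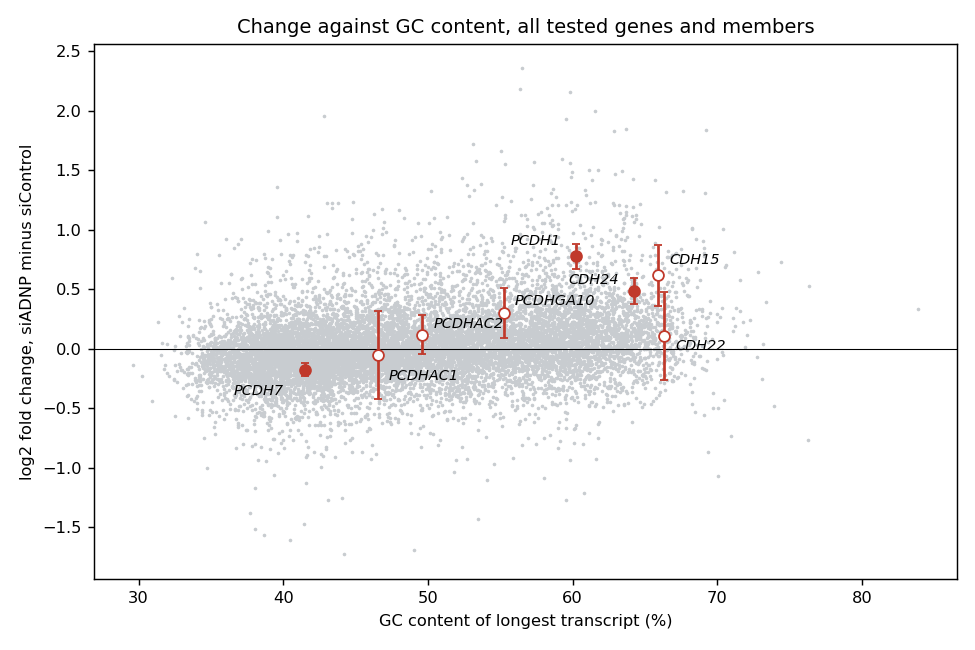
The log2 fold change of every tested gene with a GC value (grey points, vertical axis) against the GC content of its longest transcript (horizontal axis, percent), with the 8 tested members in red with their SE; filled circles were called. PCDH1 (60.2% GC, 0.78) and CDH24 (64.2% GC, 0.49) lie in the GC-rich part and PCDH7 (41.5% GC, -0.18) in the GC-poor part.

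A list of 26 further genes held other members of the cadherin superfamily and FJX1, which is no cadherin. Of these, 12 were tested, 5 rose (CELSR1, CLSTN1, CELSR2, CLSTN3 and FJX1), 1 fell (DSC2) and 6 did not pass, with a median log2 fold change of 0.27 against -0.00 for all tested genes. The called share was 50% here and 28.3% over all tested genes (14.6% higher and 13.7% lower), and 12 genes are few to set against it. CELSR1 and CELSR2, seven-pass cadherins of planar cell polarity, rose from 38.6 ± 2.38 to 53.3 ± 6.51 CPM and from 34.7 ± 2.33 to 45.5 ± 3.73 CPM (SD, n = 3), with log2 fold changes of 0.47 and 0.39. The log2 fold change of CELSR2 was 0.25 with the GC offset. CLSTN1, a calsyntenin that links cargo to kinesin, rose from 189 ± 6.41 to 253 ± 9.67 CPM (SD, n = 3; log2 fold change 0.41 ± 0.05, SE; adjusted p = 4.80e-08, edgeR). DSC2, a desmocollin of desmosomes, fell from 86.5 ± 2.92 to 69.9 ± 3.24 CPM (SD, n = 3; log2 fold change -0.31).

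The rises of CLSTN3 (log2 fold change 0.39) and FJX1 (0.39), the latter a homologue of a kinase that modifies the giant cadherins FAT and Dachsous, were less stable. Neither passed in DESeq2's Wald test (adjusted p = 0.0583 and 0.0821) or with the GC offset (0.0868 and 0.201). The CLSTN3 call was lost when siADNP replicate 2 (0.146) or siControl replicate 2 (0.0654) was left out. The FJX1 call was lost when siADNP replicate 1 (0.232) or 3 (0.0535), or siControl replicate 1 (0.0785) or 3 (0.0566), was left out. FAT1, at 1426 ± 131 CPM with siControl, was the most abundant gene of this list and did not pass (log2 fold change 0.15, adjusted p = 0.0648, edgeR), but passed in 5 alternatives, among them leaving out siADNP replicate 3 (0.000967) or siControl replicate 3 (0.0157). RET did not pass with 0.41 (0.113) and passed without siControl replicate 1 (0.0464).

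Of 21 catenins and other proteins of cadherin junctions, 17 were tested, 1 rose, 4 fell and 12 were not called (median log2 fold change -0.06). The called share of 29.4% lay near the 28.3% over all tested genes. CTNNA1, the alpha-catenin that joins cadherin complexes to actin, fell from 581 ± 7.91 to 465 ± 25.0 CPM (SD, n = 3; log2 fold change -0.32 ± 0.05, SE; adjusted p = 2.07e-06, edgeR). LIMA1, an actin-binding protein linked to alpha-catenin, fell with -0.57 and the alpha-catenin relative CTNNAL1 with -0.38. The phosphatase PTPN1 fell with -0.20 and PDLIM7, a scaffold of actin fibres, rose with 0.31. The PTPN1 call was lost in DESeq2 (adjusted p = 0.0900), with upper-quartile scaling (0.0546) and on leaving out siADNP replicate 1 (0.162) or 3 (0.0543), or siControl replicate 1 (0.208) or 3 (0.0703). PDLIM7 did not pass with the GC offset (log2 fold change 0.15, adjusted p = 0.129). Beta-catenin CTNNB1, p120-catenin CTNND1 and plakoglobin JUP gave log2 fold changes of 0.02, -0.05 and -0.07 and did not pass, although JUP passed with the GC offset (-0.21, adjusted p = 0.00149, edgeR). CTNNBIP1, an inhibitor of beta-catenin's binding to transcription factors, gave -0.29 (0.0570) and passed with the GC offset (-0.40, adjusted p = 0.00868), with that offset and the replicate block (0.0107) and on leaving out siControl replicate 1 (0.0491).

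**Figure D5:**
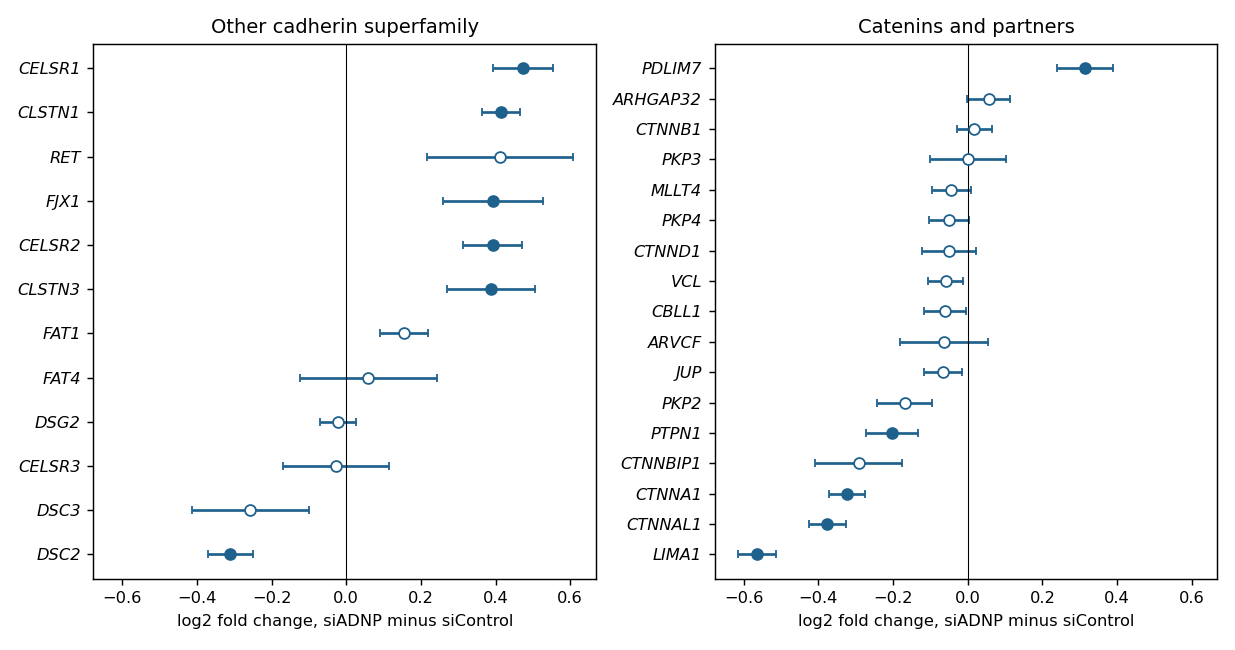
Log2 fold change (horizontal axis, siADNP minus siControl) with SE for the tested genes of the other cadherin superfamily with FJX1 (left) and for catenins and partners (right); filled circles were called. CELSR1, at 0.47, and LIMA1, at -0.57, mark the ends of the plotted values.

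Factors known to act on the clustered protocadherins were all expressed. All 28 could be tested; 2 rose, 4 fell and 22 were not called (median log2 fold change -0.04), a called share of 21.4% beside 28.3% over all tested genes. The maintenance DNA methyltransferase DNMT1 rose from 320 ± 7.63 to 491 ± 14.5 CPM (SD, n = 3; log2 fold change 0.62 ± 0.05, SE; adjusted p = 7.44e-13, edgeR). TET3 and TET2, which oxidise methylcytosine, fell with -0.41 and -0.26. The histone methyltransferase EHMT2 rose with 0.24, but not past the threshold with the GC offset (0.10, adjusted p = 0.181). CTCF, which binds the cluster promoters and folds them onto enhancers, went from 161 ± 3.87 to 175 ± 5.65 CPM (SD, n = 3). Its log2 fold change of 0.13 did not pass (adjusted p = 0.0571, edgeR), but did so in 4 alternatives, among them the fit that leaves out siADNP replicate 1 (0.0387) and the GC offset (0.0447). The cohesin subunits RAD21 and SMC3 and the silencing protein SMCHD1 gave -0.05, -0.09 and -0.04 and did not pass. The cohesin subunits STAG1 and STAG2 gave -0.14 and 0.11 and did not pass either. STAG2 passed in 4 alternatives, among them the GC offset (0.19, adjusted p = 0.00309, edgeR) and leaving out siADNP replicate 1 (0.0299), and STAG1 on leaving out siControl replicate 1 (0.0458).

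PDS5A, a regulator of cohesin, fell with -0.14. Its call was lost with upper-quartile scaling (adjusted p = 0.0575), with the GC offset (0.170), and on leaving out siADNP replicate 1 (0.0952) or siControl replicate 3 (0.102). Among 9 sheddases and gamma-secretase subunits, which cut cadherins and protocadherins at the membrane, NCSTN fell with -0.22, APH1B rose with 0.44 and 7 did not pass (median -0.03), a called share of 22.2% beside 28.3% over all tested genes. The call of APH1B was lost without each siADNP replicate in turn (adjusted p = 0.107, 0.0622 and 0.0906), without siControl replicate 3 (0.276), with the replicate block (0.0512) and in DESeq2's Wald test (0.132). The sheddase ADAM10, which cleaves cadherins, gave 0.10 and did not pass, though it passed with the GC offset (0.18, adjusted p = 0.00634, edgeR).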

How the data were processed

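RNA was sequenced from HCT116 cells in 3 siADNP and 3 siControl libraries made from total RNA with a Nugen kit, per the labels' protocols. The authors deposited read counts per gene symbol without normalization, and a second table of variance-stabilized log2 values used only in an alternative test. STAR, HTSeq and DESeq2 on hg19 were used per the submitters' processing notes. For annotation, strand and counting mode the sources used here give no statement. Rows for reads outside genes were dropped: no-feature reads were 53.5% to 55.7% of each library, non-unique alignments 17.4% to 17.9% and ambiguous reads 0.455% to 0.500%.

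The test was that of edgeR 4.0.16 under R 4.3.3 (TMM, filterByExpr with minimum count 10, glmQLFit, glmQLFTest, two-sided, Benjamini-Hochberg over all genes). The SE of a log2 fold change is its size over the root of the F statistic. Alternatives used DESeq2 1.42.0, limma 3.58.1, other scalings and filters, a replicate block, a GC offset (spline with 5 degrees of freedom) and each library left out. The procedure was tested on simulated data. GC content and length came from the longest GENCODE transcript of a newer build and covered 96.7% of tested genes. No library pair held identical counts. Named genes are the tested members, members with 10 or more reads, and up to 8 genes of each list with the smallest p. Others (CDH2, CDH5, CDH6, CDH11, CDH17, CDH23, PCDHGB1, PCDHB13, PCDHB9, further PCDHGA genes, cell type markers, and list genes that did not pass) were named after their values were seen. Members and lists were chosen with earlier results of these data known. One gene of the cluster regulators is counted but not reported here.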

Additional observations from a re-analysis of the deposited data

How the results depend on the processing

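Over 16 alternatives, the 8 tested members gave 126 values, of which 121 kept their side of the threshold, 4 lost a call (PCDH7) and 1 gained a call (CDH15), and none reversed a call. DESeq2 gave no adjusted p for CDH22 and PCDHAC1. Members outside the clusters called lower numbered 0 with the GC offset, alone or with the replicate block, where the main count was 1, and 0 to 1 without single libraries. With no filter on low counts, 1 clustered gene, PCDHGB7, was called higher instead of 0, since that fit tests genes the filter removes. Catenins and partners called higher fell from 1 to 0 with the GC offset, with or without the replicate block, and those called lower went from 4 to 6. Other superfamily genes called higher numbered 3 instead of 5 in DESeq2's Wald test and with the GC offset, with or without the block. Cluster regulators with upper-quartile scaling numbered 5 higher and 2 lower, and without single libraries 2 to 5 higher and 2 to 4 lower. Sheddases called higher numbered 0 in DESeq2's Wald test and with the replicate block, 2 with the GC offset, and 0 to 1 without single libraries. The cause of these changes was not tested. Over all genes, the higher and lower calls were 1824 and 1714, 2096 and 1379 with upper-quartile scaling, and 1546 and 1843 with the GC offset.

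Replicate numbers did not pair the samples: same-numbered libraries correlated with r = 0.02, -0.04 and -0.03 in their deviations from the group means, and not every library correlated best with its own number. The replicate block called 1695 genes higher and 1542 lower and changed no call of a member. Members under about 1 CPM could not be tested at this depth.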
